A study of Mus musculus with 12 samples.

Results

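Interferon-stimulated genes are the genes that cells switch on when an interferon binds its receptor, and 43 of them were followed here through livers injured by acetaminophen (APAP, paracetamol). They were taken as a list of gene symbols and matched to the Ensembl identifiers of the count table. All 43 were found among its 24187 genes, and all 43 were among the 22581 genes that passed a filter on low counts. Bulk RNA-seq of whole liver had been run on 12 mice, labelled C57BL/6J (the study's methods also name C57BL6/JOlaHsd). They formed 3 groups. Control mice were untreated (n = 3). APAP-vehicle mice received 350 mg/kg APAP and then phosphate-buffered saline (PBS, n = 5). APAP-hAAM mice received the same APAP dose and then hAAMs, human alternatively activated macrophages grown from donor blood monocytes (n = 4). By the study's methods the mice were 10 to 12 weeks old, were fasted for 12 h before APAP, and received cells or vehicle 16 h after it. Livers were taken 32 h after APAP by the legend of the figure that shows the RNA-seq, and 36 h by the methods. That legend also gives 500 mg/kg APAP for its mice, whereas the labels of these samples give 350 mg/kg. The sex of each mouse and whether the untreated mice were fasted are not given in the sources used here. The comparison of either APAP group with control therefore holds APAP, any fasting difference and the injection together, and these cannot be told apart.

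Interferons of type I and type III act through a complex that includes STAT2 and IRF9 and binds the interferon-stimulated response element (ISRE) in promoters. Interferon-gamma acts mainly through the GAS element and through IRF1. The induced proteins detect foreign nucleic acid, block viral translation or entry, attack the vacuoles of intracellular parasites and feed back on the pathway itself. In the liver they are made by hepatocytes as well as by Kupffer cells, endothelium and recruited leukocytes.

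The promoter sequences of the members were searched for these elements. RefSeq promoters of GRCm38.p6, each spanning 250 bases before to 50 bases after a start site, were on hand for 32 of the 43 genes (37 promoters). An ISRE-like match was GAAA, any 2 bases and GAAA again, on either strand. It occurred in 20 of these 37 promoters (54.1%), against 3.44% of all 32851 promoters of the same length. A GAS-like match was TTC, any 3 bases and GAA, which reads alike on both strands. It occurred in 8 of 37 (21.6%), against 8.3% of all. A match describes letters only and says nothing on binding. The windows below belong to the genes on which the results turn and to pairs of gene copies. They are written 5′ to 3′ on the gene's strand, and capitals mark the ISRE-like match, or the GAS-like match for Irf1. On the other strand the ISRE-like match reads as TTTC, any 2 bases and TTTC.
Rsad2, chr12:26456548-26456587, minus strand: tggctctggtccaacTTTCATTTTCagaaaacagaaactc
Stat2, chr10:128270261-128270300, plus strand: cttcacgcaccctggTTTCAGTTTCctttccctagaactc
Bst2, chr8:71537572-71537617, minus strand: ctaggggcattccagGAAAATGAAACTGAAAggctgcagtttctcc
Irgm1, chr11:48871420-48871465, minus strand: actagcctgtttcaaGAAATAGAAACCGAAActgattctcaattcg
Igtp, chr11:58199507-58199546, plus strand: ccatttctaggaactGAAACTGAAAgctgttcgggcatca
Irgm2, chr11:58214898-58214937, plus strand: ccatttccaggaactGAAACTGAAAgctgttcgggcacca
Irf1, chr11:53769909-53769947, plus strand: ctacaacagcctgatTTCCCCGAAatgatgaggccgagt
Isg15, chr4:156200860-156200911, minus strand: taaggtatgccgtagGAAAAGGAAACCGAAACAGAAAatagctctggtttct
Ifit3, chr19:34583358-34583431, plus strand: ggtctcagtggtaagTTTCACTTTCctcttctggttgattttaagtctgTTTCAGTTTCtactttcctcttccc
Oas1a, chr5:120907515-120907560, minus strand: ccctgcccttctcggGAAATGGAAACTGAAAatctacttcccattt
The windows of Ifit3 and Ifit3b were identical over 74 bases, and the windows of Oas1a and Oas1g were identical over 46 bases. In Igtp and Irgm2 a GAS-like match lay just before the ISRE-like match, starting 45 and 75 bases before the start site. In Bst2 a GAS-like match starting 136 bases before the start site overlapped the ISRE-like match. The promoters of Oasl1, Ifi47, Irf9 and Dtx3l held no ISRE-like letters in this window. Of the members whose count fell in at least one APAP group, 5 of the 9 with a promoter in the table had an ISRE-like match. The same held for 13 of 21 members that were not called, and for 1 of 2 that rose. The median log2 fold change of APAP-vehicle against control was 0.05 for the 19 genes with a match and 0.08 for the 13 without. It was -0.39 for the 11 members with no promoter in the table, of which 2 were called higher and 6 lower.

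The libraries held between 47391650 and 74056505 counts per liver. The liver control 1 stood apart from the other control livers, and was the highest of the 3 for 27 of the 43 members (62.8%, against 36.3% of all genes tested). APAP-hAAM 4 and APAP-vehicle 3 were near-identical, differing by 1.19 times the counting noise, whereas the other 35 pairs of injured livers differed by 2.36 to 4.98 times. Calls are therefore also given without control 1 and without these 2 livers where that ended the call or moved the called value by over 1.5 times. For members that were not called, values without 1 liver are given for some, and the number whose sign turned is given with the spread between livers. Nothing in the labels says that the livers of a group were handled separately, so p-values measure the spread between these samples.

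Against control, most of the interferon-stimulated genes that changed after APAP were lower, and a small set led by Rsad2 was higher. In APAP-vehicle livers, 19 of 43 genes passed an FDR of 0.05 in edgeR's quasi-likelihood test (44.2%, against 29.8% of all genes tested). Of these, 4 were higher (15% of all genes were) and 15 were lower (14.8% of all genes were). In APAP-hAAM livers, 14 of 43 passed (32.6%, against 20.7% of all genes), of which 2 were higher and 12 lower (10.7% and 9.96% of all genes). The median log2 fold change of the 43 genes was 0.04 in APAP-vehicle and 0.07 in APAP-hAAM livers, and over all genes tested it was 0.01 and 0.02. The 2 comparisons share the control livers. In bulk tissue, fewer cells of a type and less RNA per cell cannot be told apart.

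The split between higher and lower depended on scaling. With library size in place of TMM factors, the median of all genes moved to 0.36 in APAP-vehicle and 0.32 in APAP-hAAM livers. The members then gave 12 higher and 7 lower in APAP-vehicle, and 8 higher and 5 lower in APAP-hAAM. That is 44.2% and 30.2% of the members, against 43.2% and 32.5% of all genes under the same scaling, so the members' share was then near the background. The members' medians were then 0.39 and 0.39, close to those shifted medians, and every called fall kept a negative value. Without control 1, 14 and 10 members were called (32.6% and 23.3%, against 21.5% and 13.1% of all genes), and without the 2 near-identical livers 17 and 12 (39.5% and 27.9%, against 30% and 19.6%). The small number that rose was less stable. It was 2 in APAP-vehicle without control 2, control 3, APAP-vehicle 1, 2 or 4, or APAP-hAAM 4, and in APAP-hAAM it was 1 without control 2 or APAP-hAAM 2 and 4 without APAP-hAAM 3. The median turned negative in APAP-vehicle without control 2 (-0.02), control 3 (-0.06) or APAP-vehicle 4 (-0.10), and in APAP-hAAM without APAP-hAAM 2 (-0.09).

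The ranges of single livers were also compared. In 5 members every APAP-vehicle liver lay above every control liver and in 15 every one lay below (46.5% without overlap, against 34.8% of all genes). In APAP-hAAM, 1 lay above and 11 lay below (27.9%, against 28.5% of all genes).

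**Figure D1:**
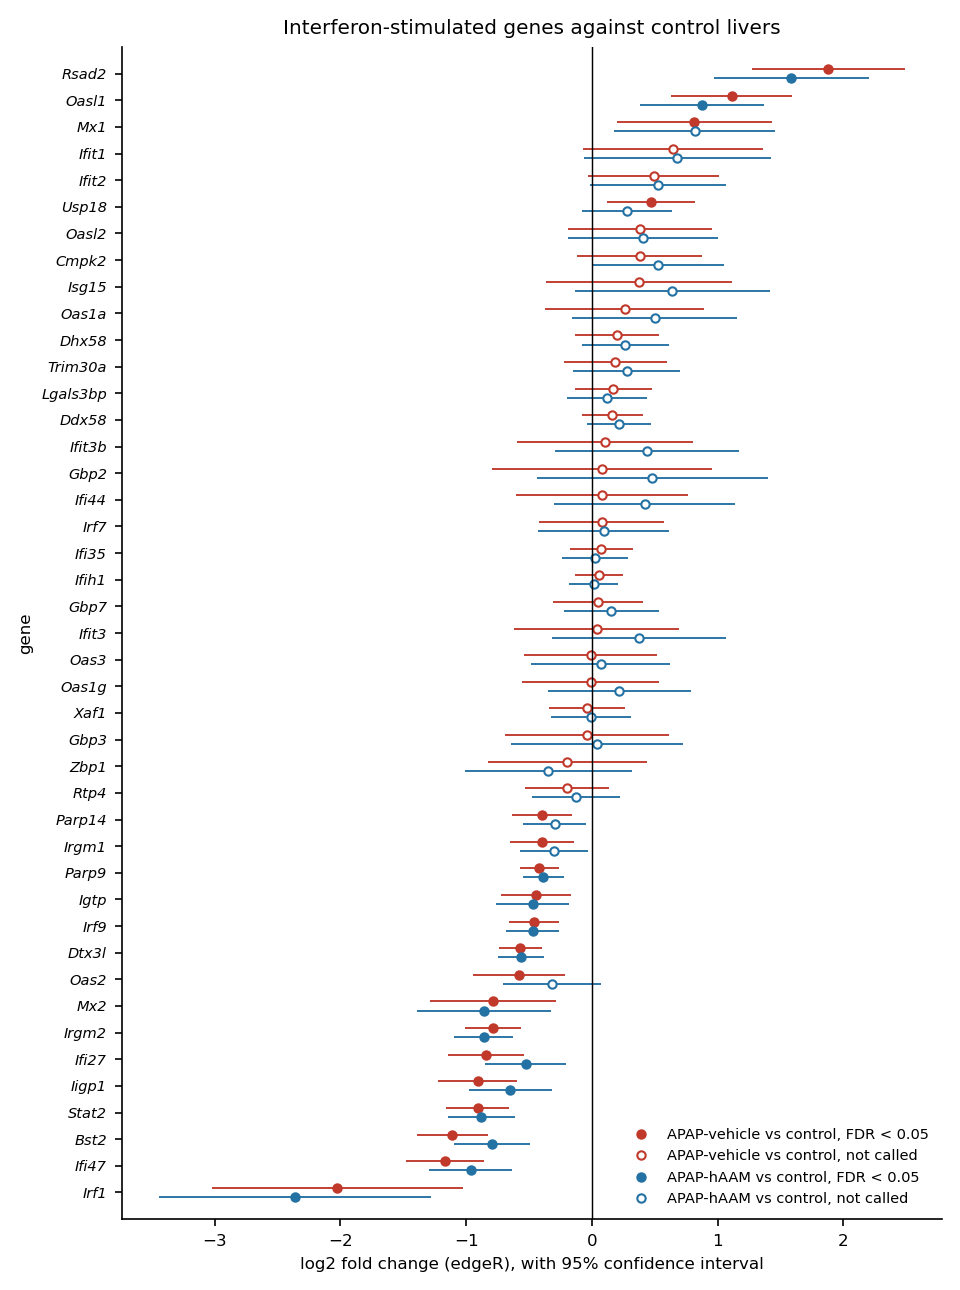
Log2 fold change (x axis, edgeR, with 95% confidence interval as a line) of each of the 43 genes (y axis, ordered by the APAP-vehicle value). Red is APAP-vehicle against control and blue APAP-hAAM against control, with filled points for an FDR under 0.05. Rsad2 sits farthest right at 1.88 and 1.59, and Irf1 farthest left at -2.02 and -2.36.

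**Figure D2:**
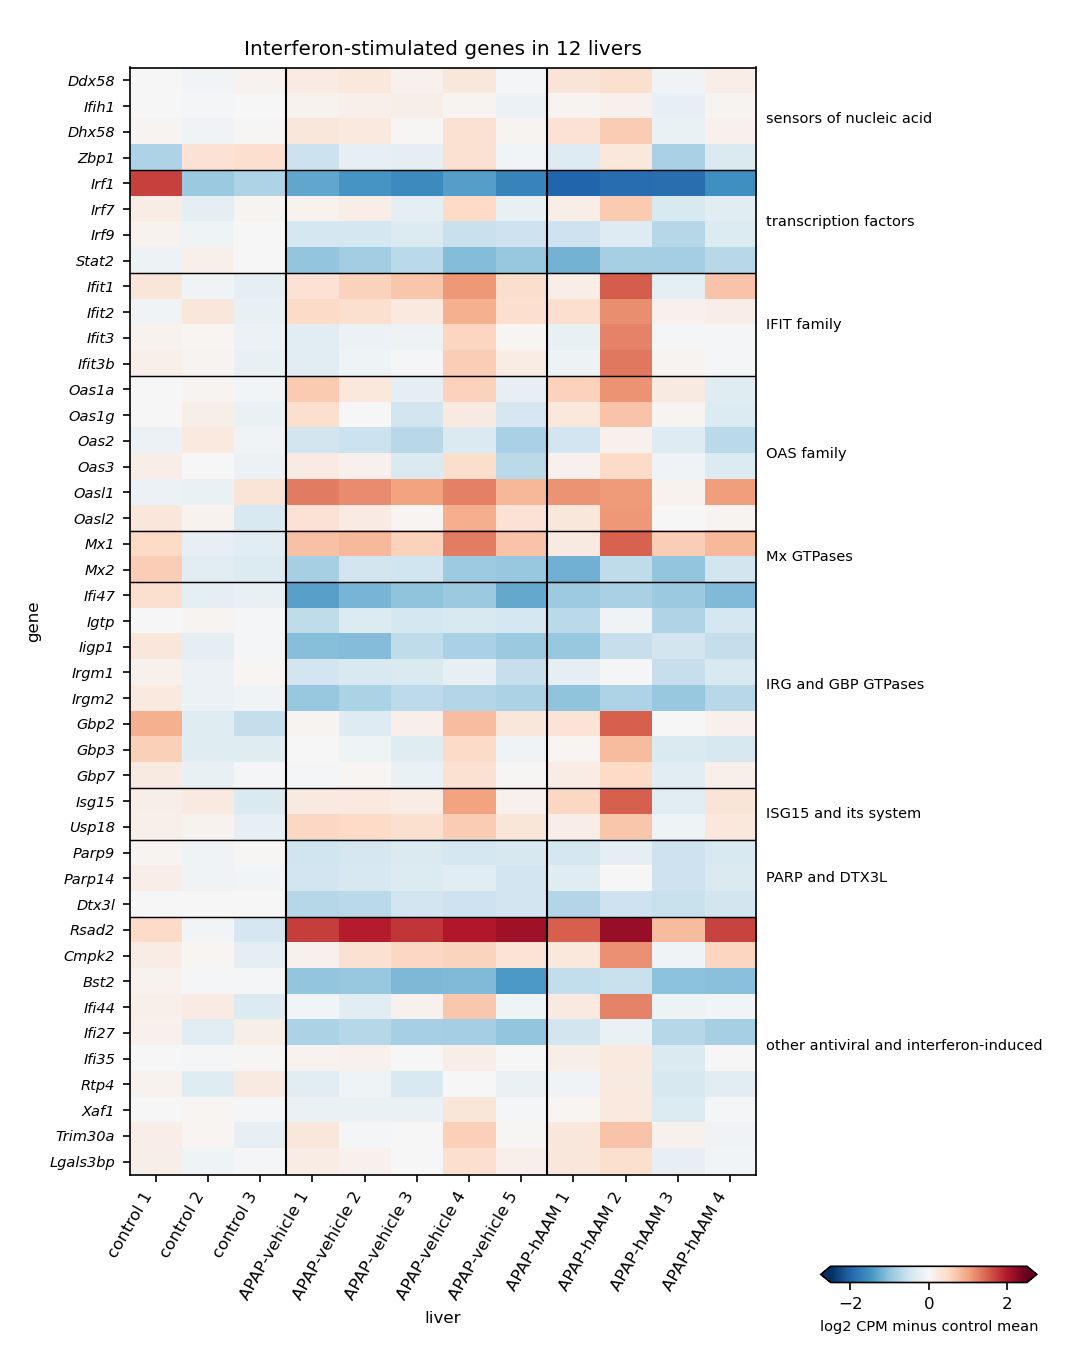
Difference of log2 CPM from the control mean (colour, red above and blue below) for 43 genes (y axis, by role) in 12 livers (x axis). Rsad2 is red and Irf1, Stat2 and Bst2 are blue in all 9 injured livers, and APAP-hAAM 2 is the reddest liver for the IFIT genes.

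Rsad2 rose more than any other member. It encodes viperin, a radical-SAM enzyme that makes a chain-terminating nucleotide, and lies at chr12:26442746-26456452 (minus strand, GRCm38). Its level was 9.89, 6.78 and 5.31 CPM (counts per 1000000, TMM-scaled) in the control livers, 23.5, 27.6, 24.6, 28.4 and 30.8 in APAP-vehicle and 20.2, 32.4, 12.3 and 23.1 in APAP-hAAM. All 9 injured livers lay above all 3 control livers, and APAP-hAAM 3 was the lowest of the injured ones. The log2 fold change was 1.88 ± 0.28 in APAP-vehicle (3.68-fold, FDR 8.28e-04) and 1.59 ± 0.28 in APAP-hAAM (3.00-fold, FDR 0.00390). Its neighbour Cmpk2, a mitochondrial nucleotide kinase at chr12:26469204-26479837 (plus strand, GRCm38), was not called, with log2 fold changes of 0.38 ± 0.23 and 0.53 ± 0.24. The confidence interval of Cmpk2 ended below that of Rsad2 in APAP-vehicle (0.88 against 1.27) and overlapped it in APAP-hAAM (1.05 against 0.97), where Cmpk2 had an unadjusted p of 0.0469. Scaled by library size alone, Cmpk2 was called higher in both groups (FDR 0.0441 and 0.0340).

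Oasl1, a catalytically inactive member of the 2′-5′-oligoadenylate synthetase family that restrains translation of Irf7, lies at chr5:114923240-114937915 (plus strand, GRCm38). Its level was 9.07, 8.92 and 12.5 CPM in control, 24.8, 22.8, 20.3, 24.1 and 17.8 in APAP-vehicle and 21.9, 21, 10.6 and 20.8 in APAP-hAAM livers. APAP-vehicle livers all exceeded control, while APAP-hAAM 3 fell within the control range. The log2 fold change was 1.11 ± 0.22 (FDR 0.00357) in APAP-vehicle and 0.87 ± 0.23 (FDR 0.0196) in APAP-hAAM. The APAP-hAAM call was lost without control 1 (FDR 0.0684) and also without control 2, APAP-hAAM 1 or APAP-hAAM 2.

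Mx1 encodes a dynamin-like GTPase against influenza virus, disabled by a deletion in most inbred laboratory strains, and its transcript is scarce in these livers. It measured 2.82, 1.71 and 1.64 CPM in control, 3.36, 3.52, 3.00, 4.88 and 3.31 in APAP-vehicle and 2.33, 5.57, 3.06 and 3.53 in APAP-hAAM livers. The APAP-vehicle livers lay above control, and the APAP-hAAM livers overlapped it through replicate 1. The log2 fold change was 0.81 ± 0.28 (FDR 0.0479) and 0.82 ± 0.30 (FDR 0.0687), so only APAP-vehicle was called. That call was lost without the near-identical livers (FDR 0.0580), and held in 4 of the 12 fits that each left out 1 liver.

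Usp18 removes ISG15 from proteins and blocks the type I receptor. It measured 8.79, 8.56 and 7.01 CPM in control and 11.6, 11.5, 10.7, 12.6 and 9.93 in APAP-vehicle livers, with no overlap, and 9.06, 13.2, 7.47 and 9.65 in APAP-hAAM livers, with overlap. The log2 fold changes were 0.47 ± 0.16 (FDR 0.0425) and 0.28 ± 0.17 (FDR 0.255). The APAP-vehicle call was lost without control 1 (FDR 0.0648) and without the near-identical livers (FDR 0.0615), and held in 4 of the 12 leave-one-out fits. The calls on Rsad2 held in all 12 in both groups.

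**Figure D3:**
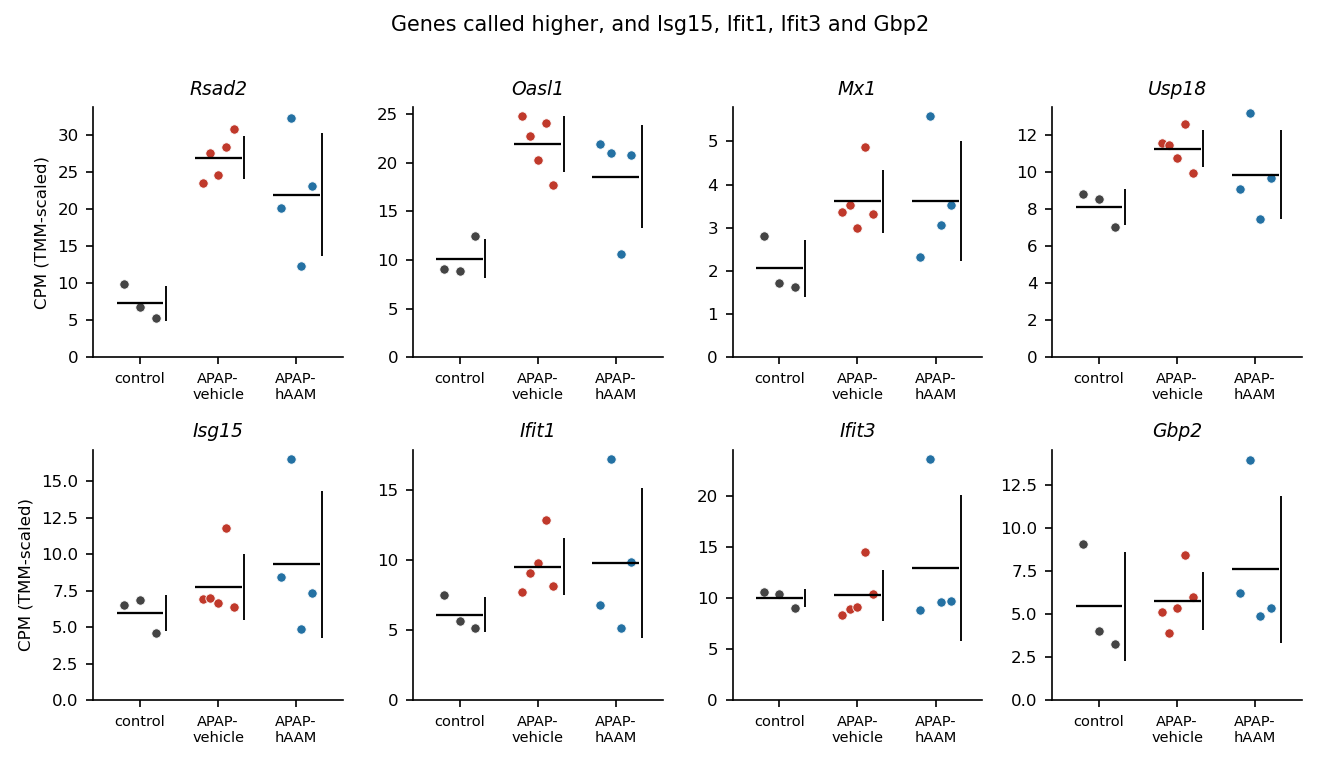
TMM-scaled CPM (y axis, from 0) in each liver (points) by group (x axis) for the 4 genes called higher and for Isg15, Ifit1, Ifit3 and Gbp2. Horizontal lines are group means and vertical lines 1 SD. In Rsad2 every injured liver is above every control liver, and in the lower row 1 APAP-hAAM liver reaches 23.6 CPM for Ifit3 and 13.9 CPM for Gbp2.

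Isg15 and the IFIT genes did not pass the test. Isg15 encodes the ubiquitin-like tag that Usp18 removes, and measured 6.48, 6.84 and 4.58 CPM in control, 6.90, 6.96, 6.66, 11.8 and 6.35 in APAP-vehicle and 8.46, 16.5, 4.84 and 7.36 in APAP-hAAM livers. Its groups overlapped, and its log2 fold changes were 0.37 ± 0.34 (FDR 0.436) and 0.64 ± 0.36 (FDR 0.223). APAP-vehicle 4 (11.8 CPM) and APAP-hAAM 2 (16.5 CPM) were each the highest of their group, and the other injured livers measured 4.84 to 8.46 CPM. The 4 IFIT genes, which bind viral RNA with altered cap ends, gave 0 calls in either comparison by edgeR and by DESeq2, and also 0 at an unadjusted p under 0.05. With library size in place of TMM, Ifit1 was called higher in APAP-vehicle (FDR 0.0450) and Ifit2 in both groups (FDR 0.0320 and 0.0444). Ifit2 was also called in APAP-vehicle in 1 of the 12 leave-one-out fits. Ifit1 measured 7.49, 5.66 and 5.16 CPM in control, 7.73, 9.05, 9.80, 12.8 and 8.17 in APAP-vehicle and 6.79, 17.2, 5.13 and 9.89 in APAP-hAAM livers. All APAP-vehicle livers exceeded control, and the log2 fold changes were 0.64 ± 0.33 and 0.68 ± 0.34 (FDR 0.160 and 0.179). Ifit2 gave 0.49 ± 0.24 and 0.52 ± 0.25. Ifit3 and Ifit3b gave 0.04 ± 0.30 and 0.10 ± 0.32 in APAP-vehicle, and 0.37 ± 0.32 and 0.44 ± 0.34 in APAP-hAAM. Without APAP-hAAM 2 the APAP-hAAM values were 0.26 for Ifit1, 0.23 for Ifit2, -0.09 for Ifit3 and -0.04 for Ifit3b. Without APAP-vehicle 4 the APAP-vehicle values of Ifit3 and Ifit3b were -0.12 and -0.06. Their coding sequences were 99.1% identical, so reads may have been exchanged between them.

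The OAS family, which makes the activator of RNase L, split. Beside Oasl1, Oas2 was called in APAP-vehicle and was lower there. It measured 6.96, 9.20 and 7.27 CPM in control, 5.59, 5.34, 4.80, 5.99 and 4.41 in APAP-vehicle and 5.58, 8.39, 6.20 and 4.87 in APAP-hAAM livers. APAP-vehicle livers lay below control and APAP-hAAM livers overlapped it. Its log2 fold changes were -0.58 ± 0.17 (FDR 0.0230) and -0.32 ± 0.18 (FDR 0.223), and the APAP-vehicle call was lost without control 2. Oas1a, Oas1g, Oas3 and Oasl2 were not called, with log2 fold changes from -0.01 to 0.38 in APAP-vehicle and from 0.07 to 0.50 in APAP-hAAM. The highest of these, Oas1a in APAP-hAAM, was 12.8 CPM in APAP-hAAM 2 and 4.76 to 8.78 in the rest of that group. Leaving out 1 liver turned the sign of Oas1g and Oas3 in APAP-vehicle and of Oas3 in APAP-hAAM. Oas1a and Oas1g, 96.7% identical in coding sequence, may also exchange reads.

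The 4 sensors of nucleic acid gave 0 calls in both comparisons by edgeR and by DESeq2, and 0 at an unadjusted p under 0.05. Scaled by library size alone, 3 of them were called higher in APAP-vehicle (FDR 0.0170 for Ddx58, 0.0162 for Ifih1 and 0.0414 for Dhx58) and 2 in APAP-hAAM (0.0230 for Ddx58 and 0.0470 for Dhx58). Ddx58 encodes RIG-I and measured 40.2, 38.3 and 42.6 CPM in control, 46.2, 48.2, 43.7, 49 and 38.8 in APAP-vehicle and 50.7, 53.6, 38 and 45.1 in APAP-hAAM livers. Its log2 fold changes were 0.16 ± 0.11 and 0.21 ± 0.12. Ifih1 (MDA5) gave 0.06 ± 0.09 and 0.02 ± 0.09, and Dhx58 (LGP2) 0.20 ± 0.15 and 0.27 ± 0.16. The intervals of Ifih1 ran from -0.13 to 0.24 in APAP-vehicle and from -0.18 to 0.21 in APAP-hAAM. Zbp1, the Z-form nucleic acid sensor that can start necroptosis, varied already among control livers (6.92, 15.2 and 15.9 CPM) and gave -0.20 ± 0.29 and -0.35 ± 0.30. It was the one sensor with negative values in both groups, and it was not called. Without control 1 its values were -0.49 and -0.64, and without control 3 0.00 and -0.15.

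Of the 4 transcription factors, 3 fell in both APAP groups. Irf1, which drives interferon-gamma targets and lies at chr11:53770014-53778374 (plus strand, GRCm38), measured 189.5, 30.2 and 33.8 CPM in control, 23.6, 20.8, 19.2, 22.1 and 18.3 in APAP-vehicle and 14.6, 15.5, 15.7 and 20.1 in APAP-hAAM livers. Control 1 was several times above the other control livers, and every injured liver was below all 3. The log2 fold change was -2.02 ± 0.46 (FDR 0.00706) in APAP-vehicle and -2.36 ± 0.50 (FDR 0.00801) in APAP-hAAM. Without control 1 these were -0.62 (FDR 0.00863) and -0.96 (FDR 0.00216), so the fall was still called and smaller. DESeq2 set no adjusted p for Irf1, because of an outlying count. Socs3, a feedback inhibitor of cytokine signalling outside the list, was also highest in control 1, at 189, 51 and 72.9 CPM in the control livers.

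Stat2, the subunit particular to type I and III signalling, lies at chr10:128270559-128292849 (plus strand, GRCm38) and measured 135, 159 and 147 CPM in control, 74.1, 80.2, 92.3, 69.1 and 76 in APAP-vehicle and 64.9, 82.6, 81.2 and 91 in APAP-hAAM livers. The injured livers all lay below control, with no single control liver standing out. Against control, the log2 fold changes were -0.91 ± 0.12 (FDR 3.42e-04) and -0.88 ± 0.12 (FDR 0.00115). Irf9, its DNA-binding partner, measured 47.8, 42 and 45.2 CPM in control, 33.1, 32.9, 35.7, 30.4 and 31.5 in APAP-vehicle and 31.4, 35.7, 27.3 and 35.4 in APAP-hAAM livers, again without overlap. It fell by 0.46 and 0.47 on the log2 scale (FDR 0.00351 and 0.00677). Irf7, the amplifier of interferon-alpha transcription, measured 39, 28.8 and 35.7 CPM in control livers, was not called and gave 0.08 ± 0.23 and 0.09 ± 0.24. Its values were 0.17 and 0.19 without control 1, and turned negative when APAP-vehicle 4 (-0.04 in APAP-vehicle) or APAP-hAAM 2 (-0.15 in APAP-hAAM) was left out. With library size in place of TMM, Stat2 and Irf1 were still called in both groups and Irf9 in neither.

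The immunity-related GTPases (IRGs) were lower after APAP, and the guanylate-binding proteins (GBPs) were not called. Both families are induced by interferon-gamma and act on the vacuoles of parasites. All 5 IRG members passed in APAP-vehicle and 4 of 5 in APAP-hAAM, all lower, whereas 0 of 3 GBPs passed in either by edgeR or DESeq2, and 0 at an unadjusted p under 0.05. With library size in place of TMM the 5 IRG members kept negative values in APAP-vehicle, and in APAP-hAAM Irgm1 turned to 0.01 without a call. Ifi47 and Irgm2 kept both calls and Iigp1 the APAP-vehicle call. Iigp1, whose product attacks the vacuole membrane, measured 388, 273 and 309 CPM in control, 153, 151, 206, 183 and 168 in APAP-vehicle and 166, 216, 233 and 210.3 in APAP-hAAM livers. No injured liver reached the lowest control liver. The log2 fold changes of Iigp1 were -0.91 ± 0.14 (FDR 0.00118) and -0.65 ± 0.15 (FDR 0.0129), and the APAP-hAAM call was lost without control 1 (FDR 0.0584).

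Ifi47, at chr11:49076587-49096974 (plus strand, GRCm38), measured 38.5, 25 and 25.7 CPM in control, 11.3, 13.1, 14.5, 15.2 and 12 in APAP-vehicle and 15.4, 16.5, 15.3 and 13.6 in APAP-hAAM livers. Control 1 was the highest, and injured livers lay below all controls. The log2 fold changes were -1.17 ± 0.14 (FDR 2.66e-04) and -0.97 ± 0.15 (FDR 0.00200). Irgm2, at chr11:58199618-58222782 (plus strand, GRCm38), measured 87.7, 66.8 and 70.3 CPM in control, 38.5, 43.2, 47.4, 44.8 and 43.2 in APAP-vehicle and 37.2, 43.3, 38.4 and 46 in APAP-hAAM livers, without overlap. It fell by 0.79 and 0.86 (FDR 4.06e-04 and 6.15e-04). Its neighbour Igtp, which shares 162 exon bases with it on the same strand, fell by 0.44 and 0.47 (FDR 0.0214 and 0.0281). Without control 1 the FDR of Igtp was 0.0549 and 0.0673. Both calls were also lost without control 2, and the APAP-hAAM call without control 3, without APAP-hAAM 1 and without the near-identical livers (FDR 0.0573). Irgm1, the regulator that keeps the other IRGs off host membranes, fell by 0.40 in APAP-vehicle (FDR 0.0241, and 0.0924 without control 1) and gave -0.30 ± 0.12 in APAP-hAAM (FDR 0.101). The call on Irgm1 was also lost without control 3, APAP-vehicle 1 or APAP-vehicle 5.

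Gbp2 measured 9.09, 4.00 and 3.26 CPM in control, 5.13, 3.90, 5.36, 8.41 and 5.96 in APAP-vehicle and 6.24, 13.9, 4.88 and 5.32 in APAP-hAAM livers. Control 1 and APAP-hAAM 2 were each the highest of their group, and the groups overlapped. Gbp2, Gbp3 and Gbp7 gave log2 fold changes of 0.08 ± 0.40, -0.04 ± 0.30 and 0.05 ± 0.16 in APAP-vehicle, and 0.48 ± 0.42, 0.04 ± 0.31 and 0.15 ± 0.17 in APAP-hAAM. Without control 1 these values were 0.67, 0.33 and 0.18 in APAP-vehicle, and 1.07, 0.41 and 0.28 in APAP-hAAM. Without APAP-hAAM 2 they were 0.01, -0.29 and 0.02 in APAP-hAAM. The difference between the IRG and GBP families was not itself tested.

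**Figure D4:**
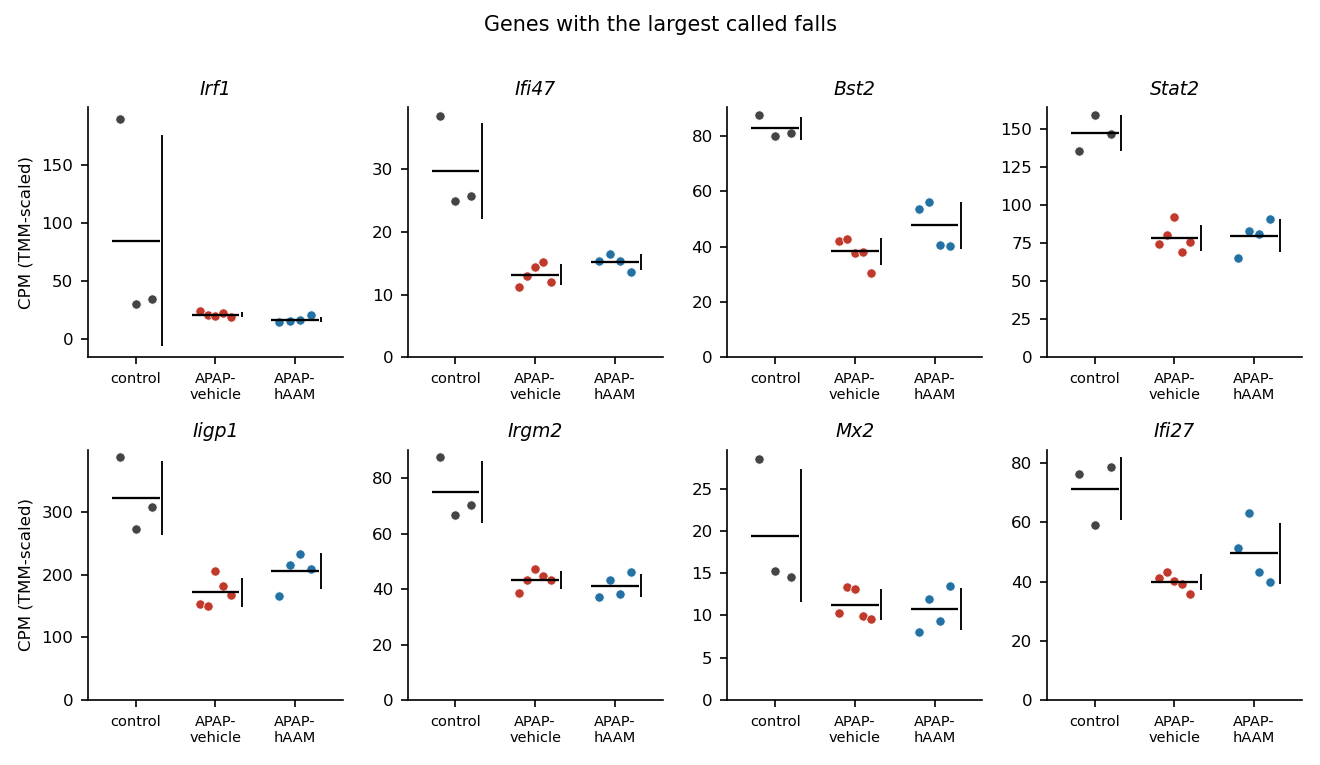
TMM-scaled CPM (y axis) in each liver (points) by group (x axis) for the 8 genes with the largest called falls. Horizontal lines are group means and vertical lines 1 SD. For Irf1 and Mx2 control 1 is far above the other control livers, whereas for Stat2 and Bst2 the 3 control livers lie close together.

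Mx2 is annotated as a polymorphic pseudogene, and its transcript was lower where that of Mx1 was higher. It measured 28.5, 15.2 and 14.6 CPM in control, 10.3, 13.4, 13.2, 9.88 and 9.60 in APAP-vehicle and 8.02, 12, 9.37 and 13.5 in APAP-hAAM livers. The injured livers lay below control, with control 1 well above the other control livers. Its log2 fold changes were -0.79 ± 0.23 (FDR 0.0233) and -0.86 ± 0.24 (FDR 0.0281), and without control 1 they were -0.40 and -0.47 with FDRs of 0.162 and 0.144, so neither was then called. The APAP-vehicle call on Mx2 was also lost without APAP-vehicle 1, 4 or 5, and the APAP-hAAM call without APAP-hAAM 1 or 3.

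Bst2 encodes tetherin, a membrane protein that holds budding virions on the cell, and lies at chr8:71534255-71537456 (minus strand, GRCm38). It measured 87.4, 79.8 and 80.9 CPM in control, 42, 42.9, 37.8, 38.2 and 30.6 in APAP-vehicle and 53.7, 56.1, 40.7 and 40.2 in APAP-hAAM livers. The control livers were close together and far above every injured liver. Against control, the log2 fold changes were -1.11 ± 0.13 (0.463-fold, FDR 2.31e-04) and -0.80 ± 0.14 (0.576-fold, FDR 0.00337), and both held in all 12 leave-one-out fits. Ifi27, an interferon-induced mitochondrial protein at chr12:103434211-103440239 (plus strand, GRCm38), measured 76.3, 59 and 78.8 CPM in control, 41.1, 43.3, 40.0, 39.1 and 35.9 in APAP-vehicle and 51.5, 63.2, 43.3 and 40.0 in APAP-hAAM livers. Only APAP-hAAM 2 reached into the control range. The log2 fold changes were -0.84 ± 0.14 (FDR 0.00143) and -0.53 ± 0.15 (FDR 0.0258), and the second was lost without control 1 (FDR 0.0822) and without the near-identical livers (FDR 0.0671), and also without control 3, APAP-hAAM 1 or APAP-hAAM 4.

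The genes of the PARP9 and DTX3L pair, which form a complex of ADP-ribosyltransferase and ubiquitin ligase, fell by like amounts. Dtx3l measured 85.1, 83.8 and 85.6 CPM in control, 52.1, 52.9, 60.7, 59.1 and 60.8 in APAP-vehicle and 50.9, 59.6, 57.9 and 61.4 in APAP-hAAM livers. The control livers hardly differed, and none of the injured livers came near them. Dtx3l fell by 0.57 and 0.56 (FDR 5.70e-04 and 0.00152), and Parp9 by 0.42 and 0.39 (FDR 0.00164 and 0.00547). The genes lie head to head on chromosome 16 and share 458 exon bases on opposite strands. The strand setting and overlap mode of the counting are not given in the sources used here. How reads from these shared bases were assigned is therefore not known. Parp14, a macrodomain ADP-ribosyltransferase nearby, fell by 0.39 in APAP-vehicle (FDR 0.0185, and 0.0910 without control 1) and gave -0.30 ± 0.12 in APAP-hAAM (FDR 0.0892).

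The remaining members, namely Ifi44, Ifi35, Rtp4, Xaf1, Trim30a and Lgals3bp, were not called in either comparison. Their log2 fold changes ran from -0.20 (Rtp4) to 0.19 (Trim30a) in APAP-vehicle and from -0.13 (Rtp4) to 0.42 (Ifi44) in APAP-hAAM. Scaled by library size alone, Ifi35 (FDR 0.0495) and Lgals3bp (FDR 0.0391) were called higher in APAP-vehicle. Lgals3bp, a secreted scavenger-receptor protein, was measured at 99.5, 83.2 and 88 CPM in the control livers.

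Levels can be set beside each other per kilobase of exon. On that scale of mean CPM per kb, Bst2 led in control livers at 91.6, followed by Iigp1 at 55.5, Ifi27 at 48.6, Lgals3bp at 31.7 and Stat2 at 24.8. In APAP-vehicle livers Bst2 still led at 42.4, with Lgals3bp at 35.6 now above Iigp1 at 29.6 and Ifi27 at 27.2. Rsad2 was at 1.69 in control, 6.22 in APAP-vehicle and 5.07 in APAP-hAAM livers. Mx1 and Oas3 were the lowest in control livers, at 0.544 and 0.616.

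Between the treated groups no member was called. By edgeR 0 of 43 genes passed an FDR of 0.05 (0% of all genes tested), and DESeq2 also gave 0. At an unadjusted p under 0.05 there were 2 members, Bst2 and Ifi27, against 5.02% of all genes. The log2 fold change of APAP-hAAM against APAP-vehicle was positive in 31 members and negative in 12, with a median of 0.05 (0.00 over all genes). In 0 members did the 2 groups separate (1.4% of all genes). Without APAP-hAAM 2 the median was -0.09.

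Bst2 was 0.32 ± 0.12 higher in APAP-hAAM on the log2 scale (95% interval 0.05 to 0.58, p 0.0234, FDR 0.966). The livers APAP-hAAM 1 and 2 exceeded all APAP-vehicle livers, and APAP-hAAM 3 and 4 lay inside their range. Ifi27 was 0.31 ± 0.13 higher (interval 0.03 to 0.59, p 0.0327, FDR 0.966), and without APAP-hAAM 2 the difference was 0.17. Iigp1, Oas2 and Ifi47 gave 0.26 ± 0.13, 0.26 ± 0.16 and 0.20 ± 0.13, with intervals from -0.03 to 0.55, from -0.08 to 0.60 and from -0.09 to 0.49. Oas2 was 8.39 CPM in APAP-hAAM 2, against 4.87 to 6.20 in the rest of its group and 4.41 to 5.99 in APAP-vehicle. These 5 genes were chosen by their p in this comparison, which shares the APAP-vehicle livers with the comparison of APAP-vehicle and control, so nothing is read from their lower values there. Rsad2 gave -0.30 ± 0.24 (interval -0.81 to 0.22) and Oasl1 -0.24 ± 0.19 (interval -0.66 to 0.18). For both genes APAP-hAAM 3 was the lowest injured liver, at 12.3 and 10.6 CPM. The other APAP-hAAM livers, at 20.2 to 32.4 and 20.8 to 21.9 CPM, overlapped APAP-vehicle (23.5 to 30.8 and 17.8 to 24.8 CPM). Stat2, Dtx3l and Parp9 had narrow intervals around 0, from -0.21 to 0.26, from -0.15 to 0.17 and from -0.11 to 0.18. Those of Irf1 and Gbp2 were wide, from -1.29 to 0.61 and from -0.40 to 1.20. The near-identical livers APAP-vehicle 3 and APAP-hAAM 4 lie on opposite sides of this comparison, so narrow intervals are not read as no difference. These livers measured 92.3 and 91 CPM for Stat2, 60.7 and 61.4 for Dtx3l and 50.7 and 50.1 for Parp9. Without them, 1530 of 22477 genes had an unadjusted p under 0.05 by edgeR, against 1133 of 22581 with all livers.

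**Figure D5:**
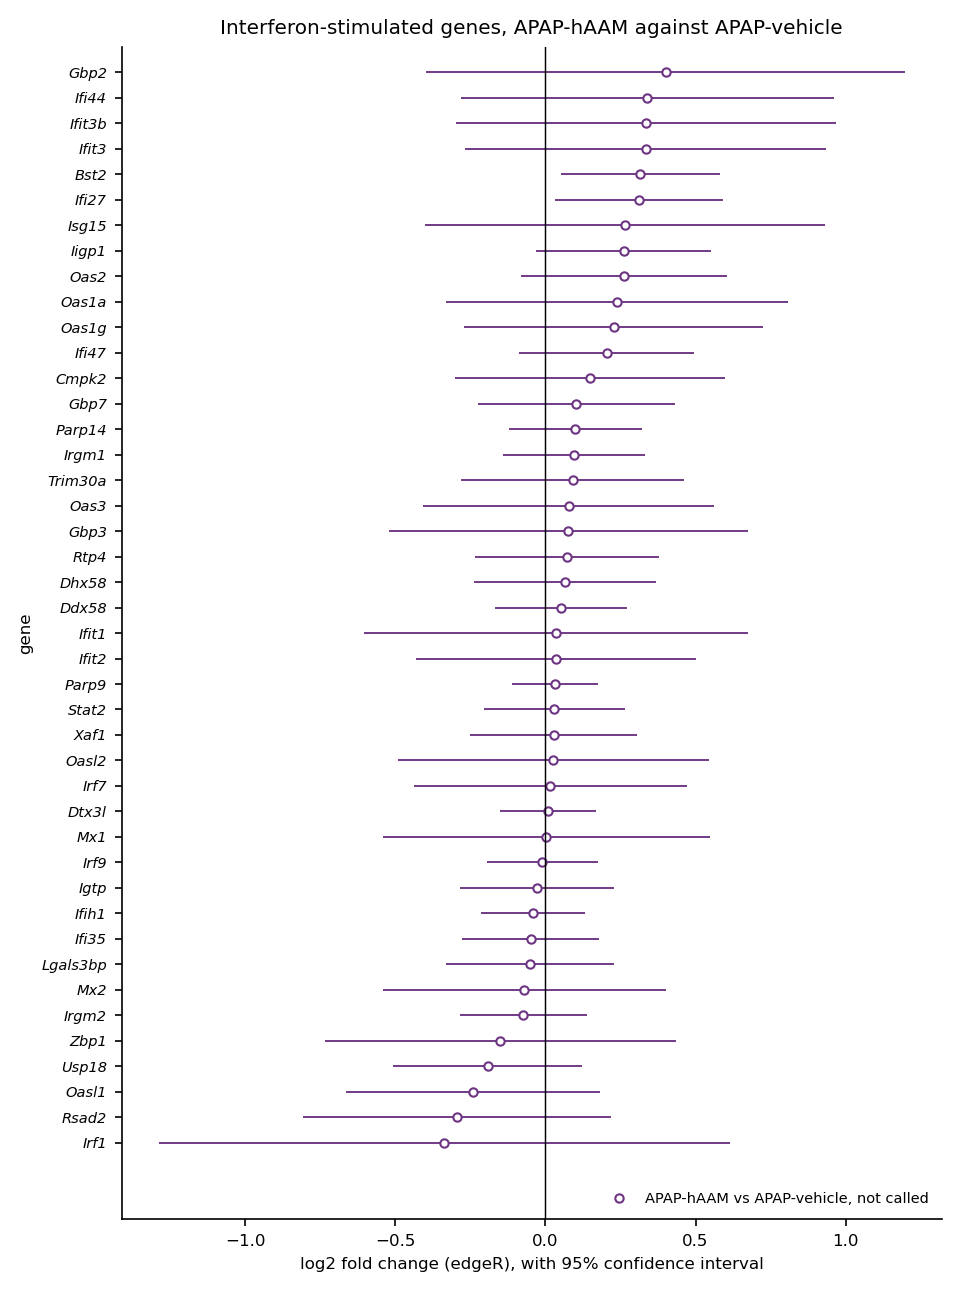
Log2 fold change of APAP-hAAM against APAP-vehicle (x axis, edgeR, with 95% confidence interval as a line) for the 43 genes (y axis, ordered by value). All points are open because none passed an FDR of 0.05, and only the intervals of Bst2 and Ifi27 leave out 0.

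Livers of the same group also differed, and the spread of the members was largest in APAP-hAAM. APAP-hAAM 2 was the highest of the 9 injured livers for 32 of the 43 members (74.4%), a position it held for 11.9% of all genes tested. APAP-hAAM 3 was the lowest for 23 members (53.5%, against 20.3% of all genes). These livers were singled out after their values were seen. The level in APAP-hAAM 2 was above the median of the other 3 APAP-hAAM livers for 42 of 43 members, with a median ratio of 1.45 and a range from 0.982 to 2.62 (all genes, median ratio 1.01). The ratio was highest for Gbp2 (2.62), Ifit3b (2.59), Ifit1 (2.54), Ifi44 (2.48), Ifit3 (2.46) and Isg15 (2.25). Of these 6 genes, Ifi44 was the one without ISRE-like letters in its promoter window. Gbp2 was 13.9 CPM in APAP-hAAM 2, the median log2 fold change of the members against control was -0.09 without that liver, and the Ifit3 level of 23.6 CPM was the highest of all 12 livers. Of the 29 members that were not called in APAP-hAAM, 27 had their lowest log2 fold change against control when APAP-hAAM 2 was left out. Leaving out 1 liver turned the sign of 8 of these 29 members in APAP-hAAM, and of 10 of the 24 that were not called in APAP-vehicle. The median SD of log2 CPM over the members was 0.19 in APAP-vehicle, 0.34 in APAP-hAAM and 0.21 in APAP-hAAM without replicate 2. Over the 11424 genes within the members' range of mean level it was 0.13, 0.16 and 0.16, and over all genes tested 0.22, 0.26 and 0.24. In control livers it was 0.21 over the members, 0.13 in that range and 0.21 over all genes.

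The genes that make, sense and relay interferon were read from a list of 44, of which 34 were tested. In each comparison with control, 19 of the 34 passed (55.9%, against the 29.8% and 20.7% of all genes given above), 9 higher and 10 lower. In APAP-hAAM the count was 10 without APAP-hAAM 1 or without APAP-hAAM 2. Without the near-identical livers 6 fell there, and the calls that ended were those on Ifnar2 (FDR 0.0800), Irf3 (0.0666), Ikbke (0.0946) and Socs1 (0.110). In APAP-vehicle those on Ikbke (0.0591) and Ticam1 (0.0595) ended. Without control 1, calls also ended in APAP-hAAM on Irf3, Irf5, Mb21d1, Tlr4, Ptpn6 and Samhd1 (FDR 0.0530 to 0.145), and in APAP-vehicle on Tlr7, Ticam1 and Samhd1 (FDR 0.0590 to 0.118). Of 6 receptors, 2 were higher and 1 lower in each group, and of 12 genes of sensing and induction 4 were higher in each and 6 and 5 lower. Of the 10 ligands listed, Ifnk was tested and was not called, and the others were not analysed here. Among receptors, Ifngr1, the ligand-binding chain for interferon-gamma, rose from 17.8, 17.4 and 14.6 CPM in control to 32.4, 30.8, 27.5, 31.5 and 33.7 in APAP-vehicle and 36.2, 36.1, 27.3 and 25.4 in APAP-hAAM livers, without overlap. Its log2 fold changes were 0.91 ± 0.13 (FDR 6.96e-04) and 0.91 ± 0.13 (FDR 0.00150). Ifnar2 of the type I receptor fell by 0.76 and 0.60 (FDR 0.00567 and 0.0316, and without control 1 by 0.49 and 0.32, with FDR 0.152 for APAP-hAAM), and Il10rb, a chain of the type III receptor, rose by 0.60 and 0.66. Ifnar1 gave 0.01 ± 0.09 and 0.06 ± 0.09 and was not called, although with library size in place of TMM it was higher in both groups (FDR 0.0312 and 0.0423).

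Of 8 genes of signal transduction, 1 was higher and 1 lower in each group. The kinase genes Jak1, Jak2 and Tyk2 were not called. With library size in place of TMM, Tyk2 was called higher in both groups (FDR 0.0151 and 0.0202) and Jak1 in APAP-vehicle (FDR 0.0489). The called genes were Irf3, lower in both groups by 0.46 and 0.28, Irf8, called higher in APAP-vehicle, and Irf5, called higher in APAP-hAAM. Irf8 gave 0.43 in APAP-vehicle and 0.42 in APAP-hAAM (FDR 0.0404 and 0.0660), and Irf5 gave 0.43 and 0.53 (FDR 0.0602 and 0.0416), so the values of the groups were close. Scaled by library size alone, Irf3 turned to 0.02 in APAP-hAAM without a call. Mavs, the mitochondrial adaptor of RIG-I and MDA5, measured 120.5, 132 and 133 CPM in control, 59.1, 61.4, 72, 52.5 and 53.5 in APAP-vehicle and 53.8, 59.9, 72 and 69.6 in APAP-hAAM livers. It was lower in every injured liver and fell by 1.11 and 1.01 (FDR 1.14e-04 and 5.17e-04). Tbk1, Myd88 and Trim25 fell in both groups, by 0.49, 1.00 and 0.37 in APAP-vehicle (without control 1, Tbk1 by 0.32 and Myd88 by 0.63), and Ticam1 fell in APAP-vehicle by 0.26 (with library size in place of TMM it gave 0.08 and no call). The kinase gene Ikbke was called lower in both groups (-0.97 and -0.99), and without control 1 gave -0.23 and -0.24 with no call. The endosomal receptors Tlr7 and Tlr9 and the lipopolysaccharide receptor Tlr4 rose, with log2 fold changes of 1.03, 1.33 and 1.06 in APAP-vehicle and 1.28 for Tlr7 and 1.07 for Tlr4 in APAP-hAAM. The DNA sensor cGAS, listed as Mb21d1, rose by 1.28 and 1.16 from control levels of 0.820, 0.755 and 0.889 CPM. Of the feedback inhibitors, Socs3 fell by 2.05 and 2.58 on the log2 scale (FDR 0.00136 and 0.00127), and without control 1 by 1.30 and 1.83. Socs1 was called in APAP-hAAM at -1.43, and without control 1 it gave -0.44 with no call. Ptpn2 fell by 0.70 and 0.66. Ptpn6 rose by 0.40 and 0.35 and Samhd1 by 0.41 and 0.48.

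Markers of other cell types were read beside these results. Of 51 markers tested, 18 were called in APAP-vehicle (35.3%, against 29.8% of all genes). In APAP-hAAM 12 were called (23.5%, against 20.7% of all genes). Of 8 markers of recruited monocytes and macrophages, 7 were higher in both APAP groups, and their summed level was 51.1 to 65.2 CPM in control, 129.8 to 266 in APAP-vehicle and 128 to 335 in APAP-hAAM livers, above control in all 9. Of 6 Kupffer cell markers 1, Marco, was called higher in each group, and the sums overlapped (167 to 231, 196 to 308 and 199 to 283). None of 6 neutrophil markers and none of 6 T and NK cell markers was called by edgeR (in APAP-vehicle 2 and 1 of them had an unadjusted p under 0.05), and the summed T and NK level was at most 2.81 CPM in any liver. Of 3 tested markers of plasmacytoid dendritic cells, the main source of interferon-alpha, Ly6d alone was called, higher in both groups. Siglech and Ccr9 were not called, with log2 fold changes of -0.35 and -0.40 in APAP-vehicle and 0.09 and -0.38 in APAP-hAAM. The summed level of the 3 was 4.47 to 5.11 CPM in control, 18.9 to 35.9 in APAP-vehicle and 7.49 to 29.8 in APAP-hAAM livers, and its difference came from Ly6d. Of 6 markers of sinusoidal endothelium, 3 (Lyve1, Pecam1 and Oit3) were higher in APAP-vehicle and 2 (Lyve1 and Oit3) in APAP-hAAM, with summed levels of 279.9 to 307, 311 to 382 and 294 to 361 CPM. Of 5 red cell markers, the 4 globin genes were higher and Alas2 lower in APAP-vehicle, and Alas2 alone was called, lower, in APAP-hAAM, with summed levels of 135 to 240.1, 220.4 to 2025 and 226 to 733 CPM. None of 5 B cell markers was called, and their summed level was 59.7 CPM in APAP-vehicle 5 and at most 9.16 CPM in the other livers. No listed marker that was tested had a group with all livers at 0. Of 6 hepatocyte markers, Hnf4a was lower in APAP-vehicle livers, and the summed level of all 6 was 56942 to 88056 CPM in control, 65042 to 94333 in APAP-vehicle and 68810.1 to 98162 in APAP-hAAM livers, with overlap. For the livers that stood apart, the summed monocyte and macrophage level was 285 CPM in APAP-hAAM 2 and 204 CPM in APAP-hAAM 3, both inside the range of the other injured livers. APAP-hAAM 2 had the lowest summed T and NK level of the 12 livers (0.778 CPM) and, within its group, the highest neutrophil (42.3 CPM) and endothelial (361 CPM) and the lowest hepatocyte (68810.1 CPM) sums. APAP-hAAM 3 had the highest summed T and NK level of the 12 livers (2.81 CPM, against at most 1.89), the highest summed hepatocyte level (98162 CPM) and, among injured livers, the lowest endothelial (294 CPM) and plasmacytoid dendritic cell (7.49 CPM) sums. In control 1 the summed neutrophil level was 29.2 CPM, against 11 and 7.09 in the other control livers. The part of cell composition in the changes of the interferon-stimulated genes was not tested.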

How the data were processed

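Total RNA of whole mouse liver had been depleted of ribosomal RNA and sequenced as directional libraries. Per the labels and the study's methods, the authors checked reads with FastQC and MultiQC 1.25, trimmed them with Cutadapt 4.6, aligned them to GRCm38 with STAR 2.7.1a and counted reads per gene with summarizeOverlaps. The strand setting and overlap mode of the counting are not given in the sources used here. The deposited values are raw counts per gene, not normalized, and every column matched 1 sample. The lowest total of a gene over the 12 livers was 15, so very low genes had been removed upstream. The labels' protocol speaks of 14 libraries, and the 12 listed were analysed here.

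Livers were grouped by their labels. Genes were filtered with filterByExpr, scaled with TMM factors and fitted in 1 edgeR 4.0.16 quasi-likelihood model of the 12 livers (R 4.3.3), with 3 contrasts and Benjamini-Hochberg adjustment over the 22581 genes tested. Genes with an FDR under 0.05 were called. Values after ± are standard errors of log2 fold changes, and intervals are at 95%. CPM are TMM-scaled. Log2 CPM used a prior count of 2. The biological coefficient of variation was 0.214. The script was tested on simulated counts.

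The 43 members, the 44 pathway genes and the marker lists were chosen with earlier results of these data known. Full values per liver were to be given for the 8 members with the largest called rises and the 8 with the largest called falls, at a mean of at least 1 CPM, and for the 5 with the smallest p between treated groups. Of the rises, 4 members qualified. Upstream genes called in either comparison with control were named. Other members given with values per liver were added after their values were seen. Promoters were searched by letter matching under Python 3.11.15. Coding sequences of GENCODE M21, aligned with Biopython 1.88, were compared in place of proteins, a choice made after seeing the data.

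Alternatives were DESeq2 1.42.0, its size factors in edgeR, library size alone, no filter, at least 10 counts in every liver, only the 2 groups compared, the replicate number as a block, each liver left out, APAP-hAAM 4 and APAP-vehicle 3 left out together, and other motif spacings.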

Additional observations from a re-analysis of the deposited data

Results flagged for a closer look

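In 8 of 86 sets of livers, 1 liver lay apart from the rest of its group by Dixon's test at 95%. Chance gives about 1 in 20 such sets, or 4.3 here. APAP-hAAM 2 was the high liver for 3 genes: Ifit3 at 23.6 CPM against 8.80 to 9.67 in the other livers of its group, Ifit3b at 12 CPM against 4.35 to 5.03, and Gbp2 at 13.9 CPM against 4.88 to 6.24. Ifit3 and Ifit3b may exchange reads and are not independent. APAP-vehicle 4 was the high liver for another 3 genes: Isg15 at 11.8 CPM against 6.35 to 6.96, Mx1 at 4.88 CPM against 3.00 to 3.52, and Xaf1 at 10.9 CPM against 7.86 to 8.59. The low livers were APAP-hAAM 3 for Oasl1, at 10.6 CPM against 20.8 to 21.9, and APAP-vehicle 5 for Ifih1, at 45.1 CPM against 52.7 to 55.4. Groups of 3, such as the control livers, were not tested in this way.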

How the results depend on the processing

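The log2 fold changes of the 12 members with the largest called rises and falls kept their sign under every alternative run. Against control, with library size alone, 12 members were higher and 7 lower in APAP-vehicle livers, 8 higher and 5 lower in APAP-hAAM livers (44.2% and 30.2% of members called, against 43.2% and 32.5% of all genes), and the members' medians were 0.39 and 0.39. Of the upstream genes, 17 were then higher and 4 lower in APAP-vehicle, and 15 higher and 3 lower in APAP-hAAM. With only the 2 groups compared, 1 member rose in APAP-hAAM, and 11 upstream genes were called there, 5 higher and 6 lower. Without the 2 near-identical livers, 2 members rose in APAP-vehicle and 6 upstream genes fell in APAP-hAAM. DESeq2 called 18 members in APAP-vehicle and 14 in APAP-hAAM (41.9% and 32.6%, against 34% and 25.8% of all genes).

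Leaving out each liver in turn gave 14 to 20 members called in APAP-vehicle, 2 to 5 higher and 11 to 15 lower, with a median of -0.10 to 0.079. In APAP-hAAM it gave 10 to 15 called, 1 to 4 higher and 8 to 14 lower, with a median of -0.09 to 0.19. Between the treated groups the median ran from -0.09 to 0.15, and 0 members were called under every alternative. Upstream genes called ran from 14 to 21 in APAP-vehicle (5 to 11 higher, 8 to 10 lower) and from 10 to 17 in APAP-hAAM (4 to 10 higher, 6 to 10 lower).

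Livers of different groups with the same replicate number shared only that number: over 10 pairs the correlation of their deviations ran from -0.46 to 0.38, and 3 were over 0.1. With the replicate number as a block, 13 members were called in APAP-vehicle and 11 in APAP-hAAM, where 1 was higher (30.2% and 25.6%, against 18.8% and 13.1% of all genes), and 10 upstream genes in APAP-hAAM, 4 higher and 6 lower. Irf1 then had an FDR of 0.0519 in APAP-vehicle. With 1 base between the GAAA cores of the motif 24.3% of member promoters matched (3.17% of all), and with 3 bases 16.2% (2.75% of all). The cause of these shifts was not tested.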
